A study of Mus musculus with 2 samples.

Results

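The genes described here are 39 type I interferon stimulated genes, a set of antiviral genes that cells switch on after interferon, measured in mouse mammary basal cells with and without depletion of macrophages. They were the rows of the count table that carried 1 of 39 listed gene names, out of 49492 genes in the table, and all 39 were found. Genes of MHC class I and class II and the interferon gamma inducible GTPases were not members. Basal cells line the outside of mammary ducts and alveoli and contract to expel milk. They were sorted by flow cytometry as lineage negative, CD24+ and CD29 high cells, where the lineage antibodies were against CD45, CD31 and TER119 (white blood, vascular and red blood cells). Both groups came from wild-type adult female mice and both were labelled day 7. The CL basal group had received clodronate liposomes (CL), vesicles that kill the macrophages which take them up, by repeated intraperitoneal injection. The Ctrl basal group is labelled as having no treatment, while the design text of the series gives saline. Each group was 1 library, the number of mice behind it was not given in the sources used here, and clodronate liposomes act on macrophages of the whole animal.

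Interferons are secreted proteins that warn cells of infection. Type I interferons bind the receptor chains IFNAR1 and IFNAR2, the kinases JAK1 and TYK2 then phosphorylate transcription factors that join IRF9 in the complex ISGF3. ISGF3 binds the interferon-stimulated response element in the promoters of target genes, whose products sense viral nucleic acid, block viral entry, translation and replication, or limit the response. Many of these genes keep a low level of expression in uninfected tissue, and several also respond to interferon gamma or directly to IRF3.

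The Ctrl basal library held 37846008 counts and the CL basal library 38962512, so that the upper limit set by a count of 0, taken as 3 counts, was 0.0782 CPM and 0.078 CPM. CPM are counts divided by the effective library size and multiplied by 1000000. All 39 members had at least 20 counts over both libraries, the minimum for testing, and the lowest was *Oas3* with 26. There was no replicate, so that no difference has a replicate check. Intervals cover counting error only, and a call compares the reads of these 2 libraries and not the conditions. Among low counts, even values outnumbered odd values, as they would be if each read of a pair had been counted, and the intervals would then be too narrow. In sorted bulk RNA, fewer cells of a type and less RNA per cell cannot be told apart.

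The response element is the sequence through which ISGF3 acts, so promoters of the members are shown first. RefSeq promoter sequences (GRCm38.p6) were matched by symbol for 28 of the 39 members. The core letters of the element, GAAANNGAAA, were searched on both strands in the 250 bases before each start site. They were found in 8 of the 28 members (28.6%), against 936 of all 27025 genes with a promoter sequence (3.46%). The 8 were *Bst2*, *Ifit1*, *Ifit3*, *Ifitm2*, *Isg15*, *Oas1a*, *Oas3* and *Rsad2*. The core of the gamma-activated site, TTCNNNGAA, which reads the same on both strands and is known from genes that respond to interferon gamma, was found in 4 members (14.3%, against 8.13% of all genes), namely *Oas1a*, *Eif2ak2*, *Bst2* and *Ifit2*. The 2 searches were independent of each other, and their matches may overlap. A match describes letters only, and bound proteins were not measured here.

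The last 150 bases before the start site are given for the 3 members with the highest and the 3 with the lowest log2 fold change among those that hold the core, with every base of a match to GAAANNGAAA, or to its reverse complement, in capitals.
Oas1a, chr5:120907526-120907675, minus strand: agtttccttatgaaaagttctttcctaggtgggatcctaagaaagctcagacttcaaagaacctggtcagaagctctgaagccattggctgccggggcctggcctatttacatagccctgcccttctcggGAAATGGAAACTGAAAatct
Isg15, chr4:156200819-156200968, minus strand: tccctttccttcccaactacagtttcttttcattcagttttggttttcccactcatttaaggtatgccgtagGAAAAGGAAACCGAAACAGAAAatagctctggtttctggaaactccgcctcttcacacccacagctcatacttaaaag
Ifit1, chr19:34640739-34640888, plus strand: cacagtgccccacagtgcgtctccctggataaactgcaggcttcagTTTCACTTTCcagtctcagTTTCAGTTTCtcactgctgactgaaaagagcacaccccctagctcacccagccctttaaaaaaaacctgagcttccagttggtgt
Ifitm2, chr7:140955962-140956111, minus strand: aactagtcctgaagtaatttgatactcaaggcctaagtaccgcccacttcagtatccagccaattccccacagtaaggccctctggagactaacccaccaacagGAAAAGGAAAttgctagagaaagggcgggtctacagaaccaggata
Oas3, chr5:120777660-120777809, minus strand: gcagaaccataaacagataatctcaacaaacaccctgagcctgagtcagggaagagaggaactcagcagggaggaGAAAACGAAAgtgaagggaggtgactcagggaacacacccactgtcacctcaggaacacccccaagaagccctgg
Rsad2, chr12:26456453-26456602, minus strand: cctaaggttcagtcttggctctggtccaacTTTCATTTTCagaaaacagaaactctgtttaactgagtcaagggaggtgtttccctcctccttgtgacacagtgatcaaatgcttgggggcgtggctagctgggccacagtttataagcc
In *Oas1a* and *Isg15* the matches overlap each other in 1 run, with the nearest base 5 and 57 bases before the start. *Ifit1* has 2 separate matches, both on the opposite strand, 76 and 95 bases before it. *Ifitm2*, *Oas3* and *Rsad2* have 1 match each, at 37, 66 and 111 bases. The order of the sequences is that of the change: *Oas1a* was higher in CL basal, *Rsad2* lower, and the others lay between. The 8 members with the core had a median log2 fold change of 0.24, with 5 above 0 and 3 below. The 20 without it had a median of 0.22, with 16 above 0 and 4 below. The 11 members without a matched promoter sequence had a median of 0.10, with 6 above 0 and 5 below.

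The set held differences in both directions between CL basal and Ctrl basal. *Oasl2* and *Oas1a*, of the oligoadenylate synthetase family, were 2.89-fold and 2.80-fold higher in CL basal, and *Oasl1* and *Rsad2* were 2.01-fold and 1.99-fold lower. The other genes mostly lay within 1.5-fold, and more often above 0 than below. A gene was called when its reads differed between the libraries (exact binomial test, Benjamini-Hochberg adjusted p under 0.05 over all 17356 genes tested) by at least 1.5-fold. By this rule 7 of 39 members (17.9%) were called higher, against 4.15% of all genes tested, and 2 (5.13%) were called lower, against 8.92%. At a threshold of 2-fold, 2 members were higher, against 1.88% of all genes, and 1 was lower, against 4.34%. The log2 fold change lay above 0 in 27 members (69.2%) and in 48.2% of all genes tested. Its median was 0.22 over the members and -0.01 over all genes, and its standard deviation among members was 0.53, against 0.55 among all genes. The 95% interval lay above 0 in 22 of the 39 members, against 25.2% of all genes tested, below 0 in 6, against 25.4%, and across 0 in 11. With counts halved to allow for read pairs, it lay above 0 in 16 members, against 18.6% of all genes, below 0 in 5, against 17.5%, and across 0 in 18.

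The summed counts of the members were 25622 in Ctrl basal and 31675 in CL basal, a log2 ratio of 0.30 between summed CPM. *Ifitm3* alone held 20.8% of the sum in Ctrl basal and 23.5% in CL basal. Without it the log2 ratio was 0.25. Among the 36 members with at least 100 counts, 7 were called higher, against 2.9% of all genes at that depth, and 2 lower, against 6.89%. The calls depend on the spread between animals, which single libraries cannot give: with an assumed coefficient of variation of 0.2, *Oasl2* was the only member called, and with 0.4 none was, by edgeR's exact test. With 0.2, 42 of all 17356 genes (0.24%) were called higher and 108 (0.62%) lower, and with 0.4, 2 were called higher and 0 lower.

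**Figure D1:**
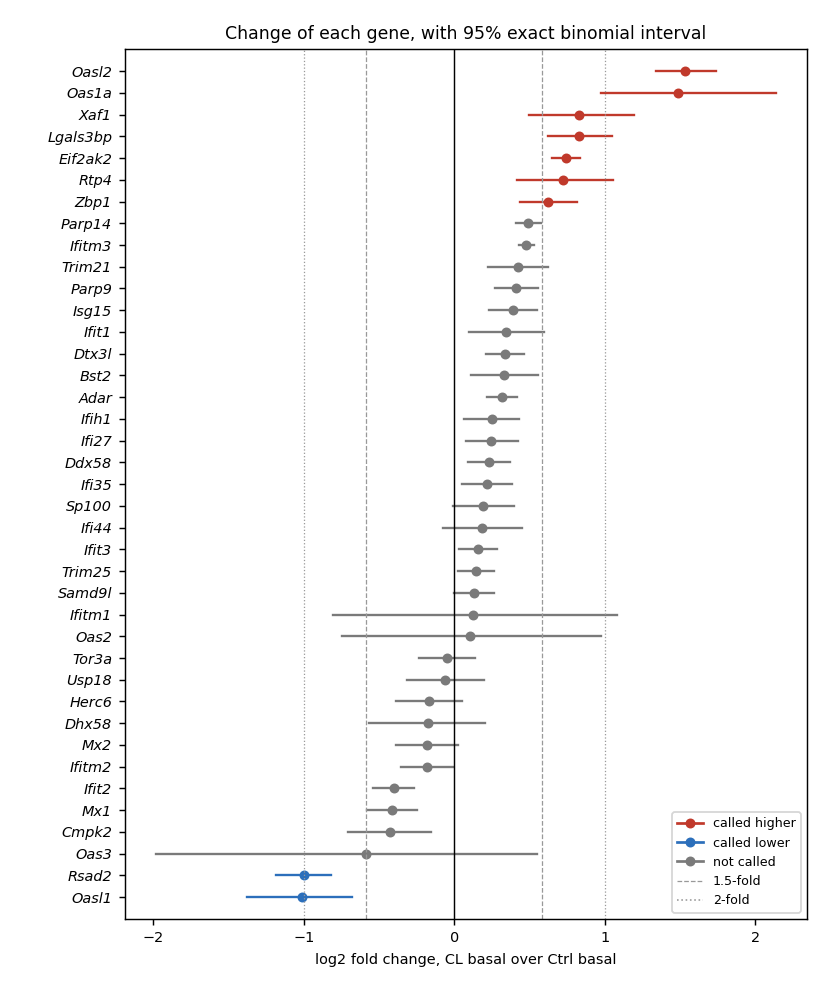
Log2 fold change (CL basal over Ctrl basal) of the 39 members, ordered by value. Points are the values, bars the 95% exact binomial intervals (counting error only), and dashed and dotted lines mark 1.5-fold and 2-fold. The 7 members called higher run from *Zbp1* (0.62) to *Oasl2* (1.53), and *Rsad2* and *Oasl1* lie at -0.996 and -1.01.

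**Figure D2:**
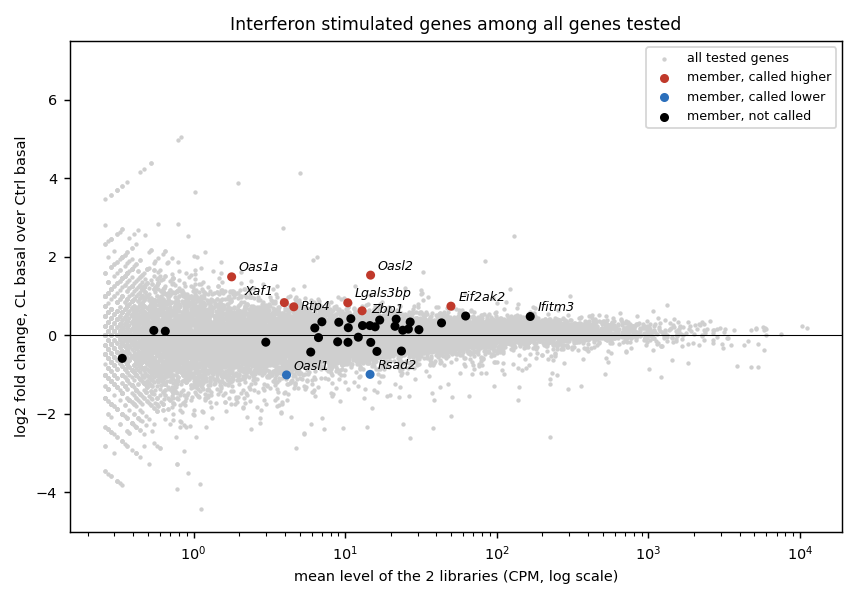
Log2 fold change against the mean level of both libraries (CPM, log scale) for all 17356 genes tested (grey) and the 39 members (black, red where called higher, blue where called lower). Grey points spread widely at low level and narrow at high level. *Oasl2* and *Rsad2* have similar mean levels and lie on opposite sides of 0, and *Oasl2* stands above most grey points of its level.

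Levels differed far more between members than between libraries. Per kilobase of exon, *Ifitm3* was the highest, with 205 CPM per kb in the control library and 285 after CL. *Ifitm2* (23.9 and 21.1), *Isg15* (19.3 and 25.3), *Ifit3* (14.1 and 15.8) and *Bst2* (8.89 and 11.2) followed in the order of the mean of both libraries, and *Ifi27* (9.07 and 10.8) was next. *Isg15* and *Ifitm2* changed places between the libraries, as did *Bst2* and *Ifi27*. *Eif2ak2* (7.29 and 12.2) lay below *Bst2* and *Ifi27* in Ctrl basal and above both in CL basal. The lowest were *Oas3* (0.059 and 0.0368), *Oas2* (0.14 and 0.15) and *Ifitm1* (0.48 and 0.52), each with at most 26 counts in a library. The median level of the members was 2.88 CPM per kb in the control library and 3.36 after CL, against 2.52 and 2.45 over all genes tested. Across the 39 members, the log2 fold change had a Spearman correlation of 0.21 with log2 mean CPM and of 0.01 with exonic length. These describe genes that share both libraries.

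**Figure D3:**
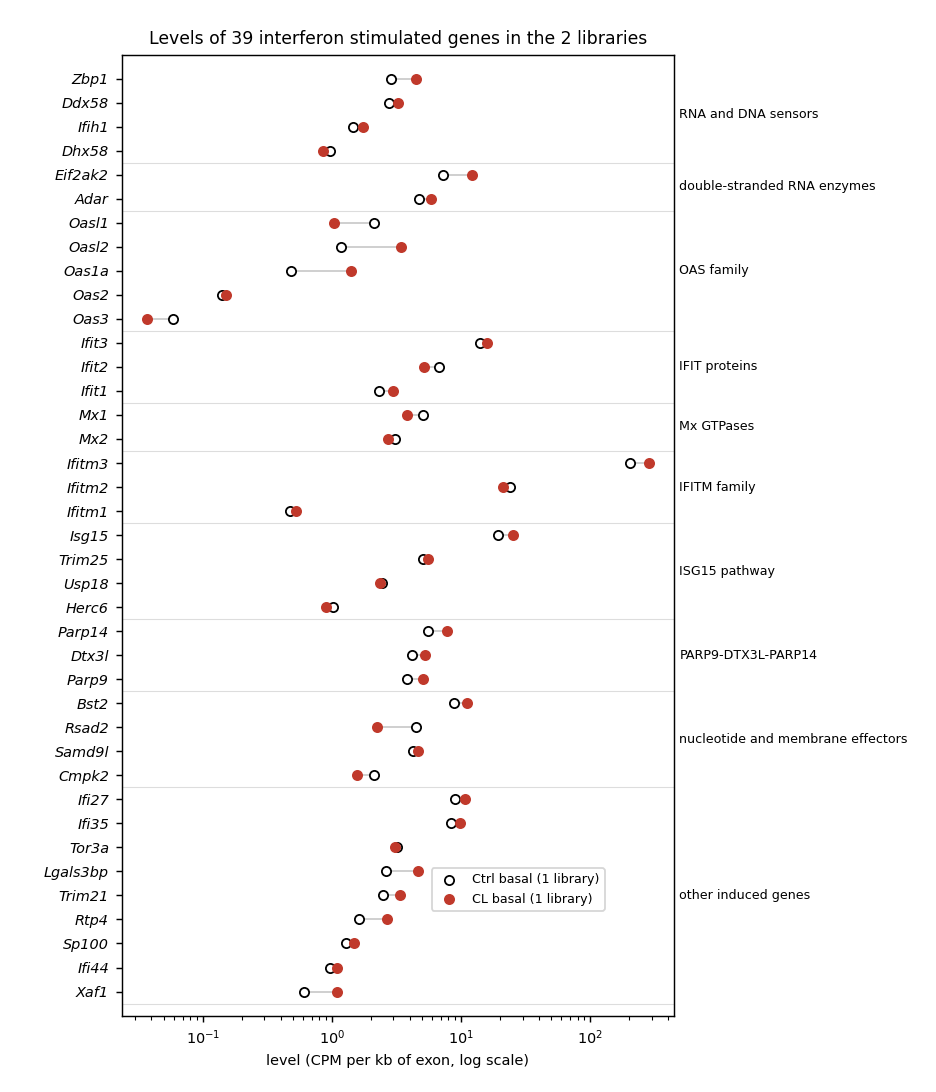
Level of each member in Ctrl basal (open circles) and CL basal (red circles), in CPM per kb of exon on a log scale, grouped by role. Levels span from *Oas3*, under 0.1 in both libraries, to *Ifitm3* at 205 and 285. The widest separations are those of *Oasl2*, *Oas1a*, *Oasl1* and *Rsad2*.

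Sensors recognise viral nucleic acid in the cytosol. *Zbp1*, which binds Z-form nucleic acid and can start necroptosis, was called higher, with 390 counts in Ctrl basal and 603 in CL basal (log2 fold change 0.62, 95% interval 0.44 to 0.81). It fell short of the threshold under scaling by total counts (0.58). *Ddx58*, which encodes RIG-I, had 752 and 884 counts (0.23, 0.09 to 0.37). *Ifih1*, which encodes MDA5, had 456 and 543 (0.25, 0.07 to 0.43). *Dhx58*, which encodes LGP2, a regulator of both helicases, had 122 and 108 (-0.18, -0.57 to 0.21). Of the 4 sensors 1 was thus called, and those for RNA stayed within 1.5-fold.

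*Eif2ak2* encodes PKR, the kinase that halts translation when it meets double-stranded RNA. It was called higher, with 1430 counts in Ctrl basal and 2397 in CL basal (0.74, 0.65 to 0.84), and it had the most counts of the called members. It shares 174 of 5113 exonic bases with *Gm26637* on the other strand, which had 59 and 118 counts. *Adar*, which edits double-stranded RNA and so limits its sensing, had 1476 and 1841 counts (0.31, 0.22 to 0.41). Of its 8118 exonic bases 1365 overlap *Chrnb2* on the other strand. Both enzymes of double-stranded RNA lay above 0, and PKR by more.

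The oligoadenylate synthetase family had the widest spread. Its enzymes make an oligoadenylate that activates RNase L, while the OAS-like proteins act without this activity or beside it. *Oasl2* had 289 counts in Ctrl basal and 841 in CL basal (1.53, 1.34 to 1.74). *Oas1a* had 35 and 102 (1.49, 0.97 to 2.14). *Oasl1*, reported to restrain translation of *Irf7*, had 211 and 104 (-1.01, -1.38 to -0.68). *Oasl1* and *Oasl2* are thus called in opposite directions although they are neighbours on chromosome 5, 11.0 kb apart on the same strand. *Oas2* (24 and 26 counts) and *Oas3* (16 and 10) were too shallow to show a change, with intervals of -0.75 to 0.97 and -1.98 to 0.55. *Oas1a* has close paralogues among which reads can be split, and of these *Oas1g* had 8 and 30 counts (1.67, 0.74 to 3.24) and *Oas1b* 12 and 14. Since *Oas1a* and *Oas1g* may share reads, they are not separate measurements. Over the 5 family members the log2 fold changes had a standard deviation of 1.17, against 0.53 over all 39.

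IFIT proteins bind viral RNA, and their genes lie together on chromosome 19. *Ifit1* had 237 counts in Ctrl basal and 302 in CL basal (0.34, 0.10 to 0.60). *Ifit3* had 946 and 1058 (0.16, 0.03 to 0.29). *Ifit2* had 1026 and 778 (-0.40, -0.54 to -0.27). None was called, and *Ifit2* lay on the other side of 0 from its neighbour *Ifit3*, 7.1 kb away, with intervals that do not overlap. The close copies *Ifit3b* (272 and 360 counts, 0.40) and *Ifit1bl1* (36 and 12 counts, -1.44, called lower) could also exchange reads with *Ifit3* and *Ifit1*. Summed over the 3 genes, the counts were 2209 and 2138, nearly level.

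Mx proteins are dynamin-like GTPases that trap viral components. *Mx1* had 709 counts in Ctrl basal and 534 in CL basal (-0.41, -0.58 to -0.25). *Mx2*, which GENCODE lists as a polymorphic pseudogene, had 425 and 376 (-0.18, -0.38 to 0.02). Neither was called, and both lay below 0. *Rsad2* and *Cmpk2*, neighbours 12.8 kb apart on chromosome 12 that are read away from each other, also lay below 0. *Rsad2* encodes viperin, which makes a chain-terminating nucleotide, and was called lower with 746 and 374 counts (-0.996, -1.18 to -0.82). *Cmpk2*, a nucleotide kinase that supplies viperin, had 261 and 194 counts (-0.43, -0.71 to -0.16). The intervals of this pair do not overlap on the full counts but do overlap with halved counts (-1.26 to -0.74 for *Rsad2* and -0.82 to -0.04 for *Cmpk2*).

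Membrane proteins that restrict viruses include the IFITM family and tetherin. *Ifitm3*, which blocks fusion of virus in endosomes, had 5324 counts in Ctrl basal and 7435 in CL basal (0.48, 0.43 to 0.53), under the threshold. *Ifitm2* had 601 and 531 (-0.18, -0.35 to -0.01), and 268 of its 655 exonic bases are shared with *RP24-243J4.5* on the same strand. *Ifitm1* had 20 and 22 (0.12, -0.81 to 1.08). Within this family the most abundant gene lay above 0, the next lay slightly below 0, and the third was too shallow to judge. *Bst2*, which encodes tetherin, had 308 and 389 counts (0.33, 0.11 to 0.55). *Samd9l*, a restriction factor and growth regulator, had 878 and 962 (0.13, -0.01 to 0.26). Neither *Bst2* nor *Samd9l* was called.

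ISG15 is a ubiquitin-like protein that is joined to other proteins. *Isg15* had 561 counts in Ctrl basal and 736 in CL basal (0.39, 0.23 to 0.55). *Herc6*, its main ligase in mice, had 362 and 323 (-0.17, -0.39 to 0.05), and 1269 of its 9292 exonic bases are shared with *Gm45193*. *Usp18*, which removes ISG15 and dampens receptor signalling, had 261 and 251 (-0.06, -0.32 to 0.20). The modifier thus lay above 0, while no change of its ligase or its protease was detectable at this depth. *Trim25*, a ligase that acts on RIG-I, had 1117 and 1236 counts (0.14, 0.02 to 0.26).

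*Parp9*, *Dtx3l* and *Parp14* encode ADP-ribosylation and ubiquitin ligase partners, and lie together on chromosome 16. *Parp9* had 714 counts in Ctrl basal and 952 in CL basal (0.41, 0.27 to 0.55). *Dtx3l* had 909 and 1152 (0.34, 0.21 to 0.47). *Parp14* had 1985 and 2796 (0.49, 0.41 to 0.57). These 3 had the least spread of the roles with at least 3 members (standard deviation 0.08), and none was called. *Parp9* and *Dtx3l* share 458 exonic bases on opposite strands, so they are not fully separate measurements.

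Of the other 9 induced genes, 3 were called higher and 8 lay above 0. *Lgals3bp*, a secreted glycoprotein, had 287 counts in Ctrl basal and 512 in CL basal (0.83, 0.62 to 1.04). *Xaf1*, which favours cell death, had 109 and 196 (0.83, 0.50 to 1.19). *Rtp4*, a chaperone of receptors at the cell surface, had 132 and 220 (0.72, 0.42 to 1.06). These 3 came from low to middling levels, between 0.61 and 2.63 CPM per kb in Ctrl basal. *Rtp4* shares 296 of its 2131 exonic bases with *Gm45338* on the same strand, which had 8 and 0 counts. *Trim21*, a cytosolic antibody receptor, had 357 and 480 counts (0.42, 0.22 to 0.62). *Ifi27*, *Ifi35*, *Sp100* and *Ifi44* had log2 fold changes from 0.19 to 0.25, and *Tor3a* was at -0.05 (-0.24 to 0.14). Intervals of *Sp100*, *Ifi44* and *Tor3a* span 0.

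The called members lie on chromosomes 2, 5, 11, 12, 16 and 17, and the coordinates are those of GRCm38 as the table gives them. *Oasl2* spans 114896936 to 114912234, *Oasl1* 114923240 to 114937915 and *Oas1a* 120896256 to 120907521 on chromosome 5. *Xaf1* spans 72301629 to 72313733 and *Lgals3bp* 118392751 to 118402092 on chromosome 11. *Zbp1* lies on chromosome 2 (173206612 to 173218923), *Rsad2* on chromosome 12 (26442753 to 26456452), *Rtp4* on chromosome 16 (23520291 to 23614222) and *Eif2ak2* on chromosome 17 (78852564 to 78882573). Members lie close together in several places: 11 neighbouring pairs were within 200 kb, and 6 of these had log2 fold changes of the same sign.

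The pathway upstream was followed in 22 signalling genes, of which 21 were tested. By the 1.5-fold rule 0 of the 21 were called higher, against 4.15% of all genes tested, and 1 lower, against 8.92%. The count called higher differed under other settings. With upper quartile scaling 2 were called higher, among them *Socs1* (0.59), against 4.43% of all genes tested. With the trend on mean expression removed *Socs1* was called higher (0.67), against 4.66% of all genes tested. Over the 21 genes the median log2 fold change was 0.11, with 16 above 0 and 5 below, and 7 intervals spanned 0. Among them, the 7 tested genes of sensing upstream of interferon had a median of -0.05, with 3 above 0 and 4 below. The receptor chains *Ifnar1* (681 counts in Ctrl basal and 693 in CL basal, 0.02) and *Ifnar2* (1351 and 1382, 0.03) had intervals that span 0. *Stat2* had 740 and 1001 counts (0.43, 0.29 to 0.57) and *Irf9*, its partner in ISGF3, 1283 and 1885 (0.55, 0.45 to 0.65), so that both lay above 0. *Irf7*, which amplifies interferon production, had 401 and 571 (0.50, 0.32 to 0.69), and *Irf3*, which starts it, 850 and 732 (-0.22, -0.36 to -0.08). *Socs1*, an inhibitor of JAK kinases, had 109 and 164 (0.58, 0.23 to 0.95). The gene called lower was *Tlr3*, an endosomal receptor for double-stranded RNA, with 110 and 53 counts (-1.03, -1.56 to -0.57).

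The interferons themselves were almost without reads. Of 21 ligand genes, 18 had 0 counts in both libraries. *Ifnb1* had 8 counts in Ctrl basal and 0 in CL basal, and *Ifng* and *Ifnab* each had 4 and 2. None reached 20 counts, so no ligand was tested. Interferon made by cells outside the sort was not measured.

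Of the most similar lists, each had members called higher and none called lower. Over all genes tested, 4.15% were called higher and 8.92% lower. The 18 interferon gamma inducible GTPases, which attack vacuoles of intracellular pathogens, had a median log2 fold change of 0.75, with 11 called higher and 0 lower. The 15 genes of MHC class I and peptide loading had a median of 0.51, with 5 called higher and 0 lower. The 9 tested genes of MHC class II had a median of 1.603, with 6 called higher and 0 lower. The type I list had the lowest of these medians. It was the only 1 of the 4 with members called lower, 2 of 39 (5.13%), a share under the 8.92% of all genes tested. Each of the other lists, with 9 to 18 genes tested, is too short for 0 called lower to differ clearly from that share. The difference between lists was not tested.

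**Figure D4:**
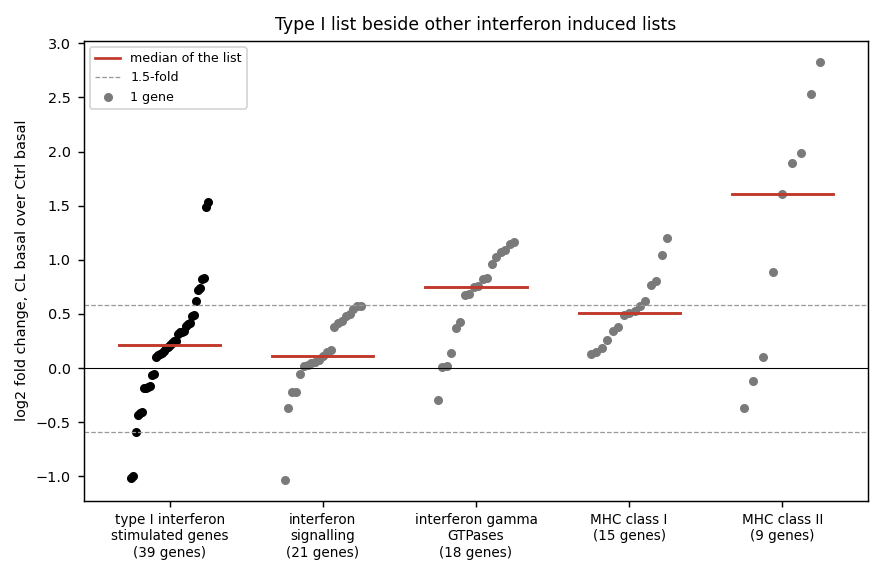
Log2 fold change (CL basal over Ctrl basal) of each tested gene in 5 lists, ordered within a list, with the median as a red line and 1.5-fold as dashed lines. The type I list (median 0.22) spans from -1.01 to 1.53, and the medians of the GTPases, MHC class I and MHC class II lie at 0.75, 0.51 and 1.603.

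Markers of the cells the sort could hold are given for the result as a whole. All 10 basal markers, among them *Krt5*, *Krt14* and *Trp63*, were present and 0 were called, with a summed level of 19782 CPM in Ctrl basal and 20719 in CL basal. Of 12 luminal markers, 10 were called lower, against 8.92% of all genes tested, and the luminal sum was 4128 and 2361 CPM. The 12 macrophage markers summed to 1068 and 1000 counts. Of the 8 that were tested 6 lay below 0, and 1 was called lower, *Mrc1*, with 168 and 86 counts (-0.95, -1.36 to -0.59). *Adgre1* had 7 and 10 counts and *Fcgr1* 0 and 4, both too few to test. The 9 dendritic markers summed to 979 and 860 counts, with *Itgax* called lower (42 and 18), *Ccr7* called higher (53 and 81) and *Cd209a* at 0 in Ctrl basal, and the 11 T and NK markers to 157 and 190, with *Ncr1* and *Klrb1c* at 0 in both. The B lineage markers without *Sdc1*, which alone had 8006 and 9287, summed to 382 and 402 counts, with *Cd22* called higher (22 and 54) and *Mzb1* at 0 in CL basal. Endothelial markers summed to 15182 and 12436 counts although CD31 was used to remove these cells, and fibroblast markers to 7736 and 5708. The luminal, endothelial and fibroblast sums were thus lower in CL basal, and the 4 immune lists without *Sdc1* were nearly level at 2586 and 2452 counts. A large part of that immune sum lay in *Zbtb46* (716 and 596 counts), *Mertk* (353 and 421) and *Pax5* (209 and 204). The sum therefore says little about any single immune cell type. The part of any of these cells in the changes of the members was not tested.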

How the data were processed

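RNA of sorted mammary basal cells was sequenced from 1 control and 1 clodronate liposome treated sample. The authors deposited raw read counts per gene with exonic lengths and coordinates, laid out as featureCounts writes them. The submitters' processing notes name GRCm38 and mm10; the aligner, annotation release, strand setting and filters are not given in the sources used here. The deposited ratio and log2 ratio columns hold the authors' own comparison and were not used. Of the 39 members, 37 had the same start and end in GENCODE M21. Low counts (1 to 20) were even in 67.9% of values in Ctrl basal and 68.7% in CL basal. Above 1000 the shares were 49.7% and 49.9%.

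Library sizes were scaled by TMM (edgeR 4.0.16, R 4.3.3; factors 1.0133 for Ctrl basal and 0.9869 for CL basal), computed on the 17356 genes that reached 20 counts in the sum of both libraries. Log2 fold changes used a prior count of 2. Calls came from two-sided exact binomial tests (scipy 1.17.1) with Benjamini-Hochberg adjustment over all genes tested, and intervals are exact (Clopper-Pearson) at 95%. No p-value is given, since no model with a spread between replicates can be fitted. The test was tested on simulated data, where it found genes made to differ but also called many unchanged genes once libraries varied as animals might. Alternatives were other scalings (DESeq2 1.42.0 size factors among them), prior counts, filters and thresholds, halved counts, a thinned library, assumed coefficients of variation and removal of a trend. The rule for named genes took members called at 1.5-fold, the 5 with the highest level per kb and those with a printed promoter, the other members by role, and, outside the members, signalling and ligand genes, paralogues and markers. Signalling genes that were not called were added after their values were seen. The planned protein sequences were not used here, and 1 signalling gene is counted but not reported here by name. The members and lists were chosen with earlier results of these data known.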

Additional observations from a re-analysis of the deposited data

How the results depend on the processing

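The median log2 fold change of the members ran from 0.18 (total counts) to 0.24 (at least 100 counts) under the other scalings, prior counts, filters, the thinned library and the removed trend, and the median of all genes tested from -0.04 to 0.004. Of the counts of called members, 7 higher and 2 lower, those under total counts (6 higher) and the other settings without a changed threshold or an assumed spread stayed within 1.5 times. With the 2-fold threshold 2 members were higher and 1 lower. With an assumed coefficient of variation of 0.2, 1 member was higher and 0 lower, and 0 signalling genes were lower, while 42 of all 17356 genes were called higher and 108 lower. With 0.4, 0 members were higher and 0 lower, and 0 signalling genes were lower, while 2 of all genes were called higher and 0 lower. A wider assumed spread or a higher fold demands more of each gene by construction. Signalling genes called higher numbered 0 as reported, 2 with upper quartile scaling and 1 after removal of a trend on mean expression. Of 504 values of single members under alternatives, 479 kept their direction and side of the threshold, and 24 lost a call. A further 1 changed sign, *Usp18* at 0.0074 once that trend was removed, and the cause was not tested. Only the 9 called members could lose a call. The filters, the 2-fold threshold and the assumed spreads leave each log2 fold change as it was, so direction was fixed under them. No paired analysis was possible because there was 1 library per group. Depth limits *Oas2*, *Oas3* and *Ifitm1*, which have under 100 counts over both libraries.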

Other observations

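Relatives of the members that were not members were also read. Of 23 listed paralogues, 22 were in the table and 11 had enough counts. *Parp11*, an ADP-ribosyltransferase, was called higher with 43 counts in Ctrl basal and 86 in CL basal (log2 fold change 0.96, 95% interval 0.45 to 1.56). *Parp10* had 482 and 654 counts (0.43, 0.26 to 0.61) and *Parp12* 459 and 619 (0.43, 0.25 to 0.60), both under 1.5-fold and close to the values of *Parp9* and *Parp14*. *Ifi27l2a* had 65 and 46 counts (-0.48, -1.08 to 0.06), an interval that spans 0, while *Ifi27* had 510 and 607 (0.25, 0.08 to 0.42).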
